A study of Homo sapiens with 9 samples.

Results

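Cytosolic ribosomal protein genes encode the protein parts of the ribosome that translates nuclear mRNAs, with RPL genes for the large subunit and RPS genes for the small subunit. They were taken from the array annotation by symbol, as RPL or RPS followed by a digit plus RPLP0, RPLP1, RPLP2 and RPSA, without pseudogenes, RPS6K kinases and RPS19BP1. This gave 61 of the 19775 genes with a probe set of their own, 39 of the large and 22 of the small subunit. Of these, 52 are core proteins (32 large, 20 small), 8 are paralogs whose symbol adds an L to that of a core gene, and 1 is a Y-linked paralog that is counted with no level given. The paralog RPL3L did not pass the filter on low signals, so levels are described for 52 core genes and 7 paralogs. A further 26 coding ribosomal protein genes were not analysed here, because 15 of them are only on probe sets that name several genes and 11 are on none of the probe sets with an annotation used here. RPLP0, RPL13A and RPL5 are among them.

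RNA of SK-N-AS, a human neuroblastoma line, was read on 9 Affymetrix arrays. In the full-length series cells carried the RE-EX1 construct, which overexpresses full-length NRSF, a repressor of neuronal genes encoded by REST. In the truncated series they carried HZ4, which overexpresses a truncated NRSF, and the untreated series had no construct. Each series has 1 array at 0 h, the baseline of that series, 1 at 24 h and 1 at 48 h, so a single group has no replicate. The labels name no series with an empty construct, and the sources used here do not give how the constructs were delivered. The series text speaks of triplicate samples in 3 batches, and how these relate to the 9 arrays is not stated, so no batch could be taken into account.

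All arrays had been scaled to the same trimmed mean signal of 150.02, and their median signals lay between 30.87 and 42.67. REST read 171.1, 268.3 and 273.5 at 0, 24 and 48 h in the full-length series, 162, 323.1 and 341.6 in the truncated and 177.2, 444.7 and 260.3 in the untreated series. At 24 h neither construct array was thus above the untreated one, and at 48 h both were. Of the neuroblastoma markers, GATA3 (median signal 1781) was clearly read, ISL1, PHOX2A and HAND2 were low (253.6, 100.8 and 47.89), and TH and DBH were at or near the floor (14.56 and 8.266). All 5 mesenchymal neuroblastoma markers were read, among them VIM at 11104 and CD44 at 4275. Of the markers of other cells, 0 of 3 epithelial and 0 of 3 Schwann and melanocyte genes passed the filter, as against 1 of 3 blood genes (PTPRC, 127.4) and 1 of 2 endothelial genes (PECAM1, 126.5). In a bulk culture fewer cells of a type and less RNA per cell cannot be told apart, and the scaling means that a signal is relative to the rest of the array.

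Ribosomal proteins are made in near equal amounts, assembled on ribosomal RNA in the nucleolus and exported as subunits, and their mRNAs are among the most abundant of a growing cell. These mRNAs typically begin with a C followed by a run of pyrimidines, the 5′ terminal oligopyrimidine (TOP) tract, through which the growth regulator mTOR and the binding protein LARP1 control their translation. MYC is known to raise transcription of ribosomal protein genes, and unassembled RPL5 and RPL11 bind MDM2 and so stabilise p53.

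The start sequences are shown first because the TOP tract is what the mRNAs of this family are known to share. Each line gives 30 bases of the gene's own strand from RefSeq (GRCh38.p14), 20 before the annotated start and 10 from it, and capitals mark the run of C and T that begins at the start with a C. The genes shown are the 4 with the brightest signals, those that passed a test, RPL35, RPL11 and RPS18, and 2 further paralogs.
RPS16: ccagggtggcccctagctttCCTTTTCCgg
RPL37A: cctgcgcaccgcgtctcttcCTTTCTgggc
RPL39: gctcgttcttccgccagcttCCCTCCTCTT
RPL41: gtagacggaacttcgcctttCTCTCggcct
RPL34: ctggcaaaggcttttttcttCCTCTTCCgg
RPL3: gacccgtaaggccgaccggcCTCTaccggc
RPL35: aggtcagccccgcctacttcCTCTTTCCCT
RPL11: tcggccggaagctccgctttCTCTTCCTgc
RPS18: gatatcgcgtcacttccgctCTCTCTTCCa
RPL22L1: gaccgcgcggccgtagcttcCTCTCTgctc
RPL36AL: tccgcctgtttcttccctttCCTgttaggc
RPL26L1: agaggggcggggcggcggccacaaacccgc
RPL7L1: cgcgccggaagtgcggcgccgtagctagga

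On the plus strand lie RPL37A (chr2:216498824-216498853), RPL41 (chr12:56116613-56116642), RPL34 (chr4:108620556-108620585), RPL11 (chr1:23691786-23691815), RPS18 (chr6:33272055-33272084), RPL26L1 (chr5:172958860-172958889) and RPL7L1 (chr6:42879596-42879625). On the minus strand lie RPS16 (chr19:39435940-39435969), RPL39 (chrX:119791621-119791650), RPL3 (chr22:39319614-39319643), RPL35 (chr9:124861948-124861977), RPL22L1 (chr3:170870186-170870215) and RPL36AL (chr14:49620617-49620646). The motif searched was a C at the start followed by at least 4 letters that are C or T, on the gene's strand alone, and where RefSeq lists several starts the one with the longest run was taken for every gene. It was found at 34 of 46 core genes with a start sequence (73.91%), 1 of 6 paralogs and 988 of 15843 protein-coding genes (6.236%). Among mitochondrial ribosomal protein genes, which serve the separate ribosome of that organelle, it was found at 5 of 67 (7.463%). RPL22L1 is the paralog that holds it. RPL3 falls short, with a run of 4, and RPL26L1 and RPL7L1 start with no C. A match describes letters at an annotated start and does not show translation control.

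The core genes gave some of the brightest signals of every array. Mean signal over the 9 arrays had a median of 14890 among the 52 core genes, with a lowest of 54.93 and a highest of 29410, against a median of 172.8 over all 13792 genes. It was above 10000 for 36 core genes and for 77 of all genes, and above 20000 for 11 core genes and for 21 of all genes. Signal also depends on how well a probe set binds, so the order of signals is not an order of mRNA amounts. Core genes had a median standard deviation over the 9 arrays of 0.23 log2 against 0.42 for all genes, though it was also 0.23 for the 213 other genes with mean log2 signal above 12. RPL31 varied least (0.16) and RPL34 most (0.58).

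RPS16, a small subunit protein that reaches toward the transfer RNA in the peptidyl site, had the brightest probe set. It read 33558, 31131 and 27121 at 0, 24 and 48 h in the full-length series, 22807, 27445 and 32383 in the truncated and 27507, 24971 and 37767 in the untreated series. RPL37A, a zinc-binding protein of the large subunit, read from 21964 on the truncated 24 h array to 38158 on the untreated 48 h array, with a median of 27133. RPL39, which lines the tunnel through which the new protein leaves, read from 21814 to 35937 (median 27365). RPL41, a very short peptide, read from 21516 to 37408 (median 24738). All 4 were highest on the untreated 48 h array, while their lowest array differed.

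The 4 core genes at the other end ranged widely. RPL36A, which lies near the exit site for transfer RNA, read from 27.56 to 91.73, and RPLP2, an acidic protein of the stalk that recruits elongation factors, from 62.86 to 221.4. RPL27A read from 705.9 to 1705 and RPL36 from 2038 to 3545. The other probe set of RPLP2 was dimmer still, at 12.74 to 56.68. Whether low signal here comes from the probe sets or from the transcripts was not tested. Probe sets that name several genes were left out, so the one used need not be the brightest that reads a gene. Changes of RPL36A and RPLP2 carry standard errors of 0.45 and 0.34 log2 against a median of 0.17 among core genes.

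**Figure D1:**
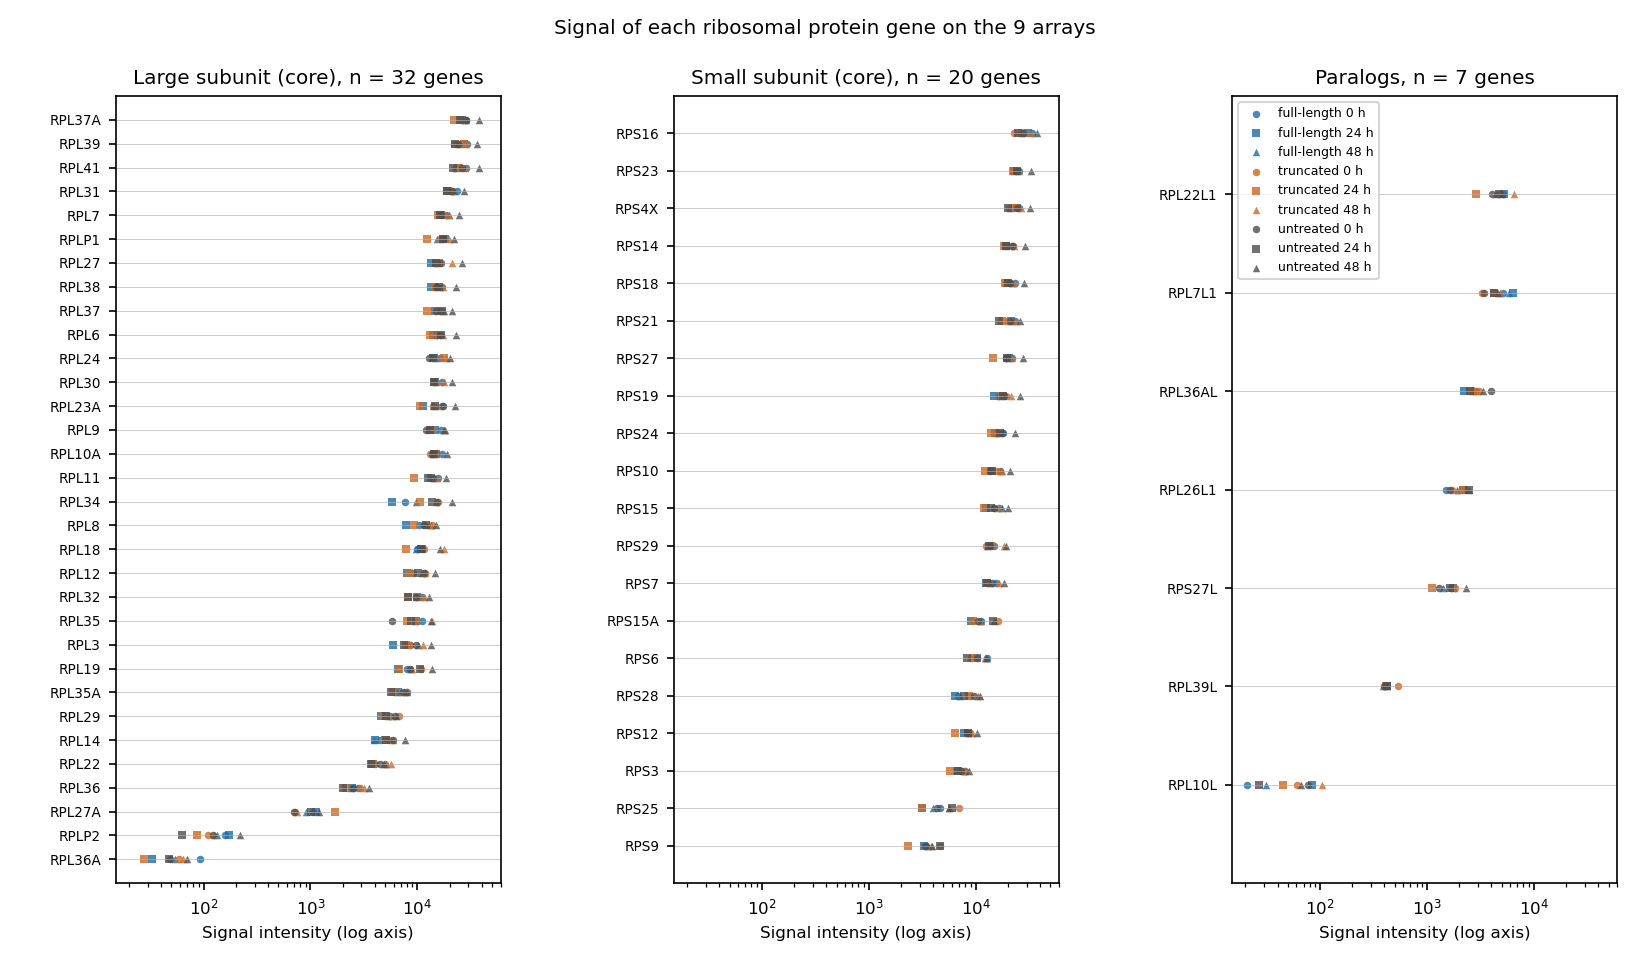
Signal intensity (log axis) of each core gene of the large subunit (32), of the small subunit (20) and of 7 paralogs on the 9 arrays, with colour for the series and marker shape for the time, 1 array per point. Most core genes lie close to 10000 or above with points close together, the untreated 48 h array is often the rightmost point, and RPL36A, RPLP2, RPL27A and the paralogs lie to the left.

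Saturation of bright signals was judged from the deposited signals, since scanner pixel values were not used here. The highest signal on each of the 9 arrays was a control probe set, at 32214 to 61079, and was 1.06 to 1.64 times that of the brightest core gene, RPS16 on 4 arrays and RPL37A on 5. Between 45 and 48 of the 52 core genes were in the top 1% of an array. The standard deviation over arrays was 0.24 log2 (median) for 25 core genes with mean log2 signals from 13 to 14 and 0.22 for 16 above 14, beside 0.21 and 0.24 for other genes of the same classes. The difference of 48 h from 24 h had a median of 0.31 log2 for 6 core genes from 12 to 13, 0.39 from 13 to 14 and 0.30 above 14.

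Dimmer probe sets of the same genes give another reading. Over 22 other probe sets with mean signals above 1000, from 16 genes, the median difference of 48 h from 24 h was 0.32, and it was 0.30 for the brightest probe sets of those genes. Over 37 probe sets under 1000, from 26 genes, it was 0.05, where the brightest probe sets of those genes gave 0.32. Single values among the 37 ran from −1.88 to 1.5, and 21 of them were higher at 48 h. Their mean signals went from 766.1 down to 4.187, which is under the floor of 8.266 to which lower signals were raised. Changes under that floor are lost, so the 0.05 does not show whether the transcripts themselves failed to rise. Core genes are uncertain where a probe set carries the suffix that marks possible cross-hybridization, which holds for 14 of 52. The median difference of 48 h from 24 h was 0.34 for these 14, 0.32 for 28 with a suffix that marks shared transcripts and 0.44 for 10 with neither. Processed pseudogenes close to the parent sequence are common in this family, and reads of parent and copies cannot be told apart on such probe sets.

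Most core genes shared a pattern over the arrays, and the untreated 48 h array stood apart. As deviation from each gene's own mean over the 9 arrays, the core median was 0.09, −0.13 and −0.06 log2 at 0, 24 and 48 h in the full-length series, −0.05, −0.23 and 0.14 in the truncated and −0.02, −0.13 and 0.42 in the untreated series. The 3 lowest medians were thus those of the 3 arrays at 24 h, and the highest was that of the untreated 48 h array. It held the highest signal of 40 of 52 core genes (76.92%), against 9.42% of all genes, and the truncated 24 h array the lowest of 17 (32.69%, against 17.59%). Over all genes the median deviation of an array was between −0.02 and 0.06. Single core genes followed the core median with a median Pearson r of 0.81 over the 9 arrays, from −0.17 for RPL27A to 0.96, as a description over arrays that share their scaling and of genes that are themselves in the median.

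Other bright probe sets moved in the same direction on those arrays. For 213 other genes with mean log2 signal above 12 the median deviations, in the same order, were 0.04, −0.06 and −0.03, then −0.05, −0.15 and 0.11, then −0.02, −0.08 and 0.23. The median of the 47 core genes with mean log2 signal above 12 differed from theirs by −0.08 to 0.18, with the highest difference again on the untreated 48 h array. The hybridization controls, transcripts added to the labelled sample, had a median deviation of 0.62 on the untreated 48 h array and of −0.32 to 0.35 on the others. The 0.35 was on the truncated 24 h array, where the core median was lowest (−0.23), so there they went the opposite way. On the full-length 24 h array they were at 0.09, against −0.13 for the core genes. Their part in the pattern of the ribosomal protein genes was not tested. Another 35 bright probe sets, which name a ribosomal protein gene together with a small RNA gene and were left out above, gave 0.41 on the untreated 48 h array and −0.18 to 0.17 on the others.

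**Figure D2:**
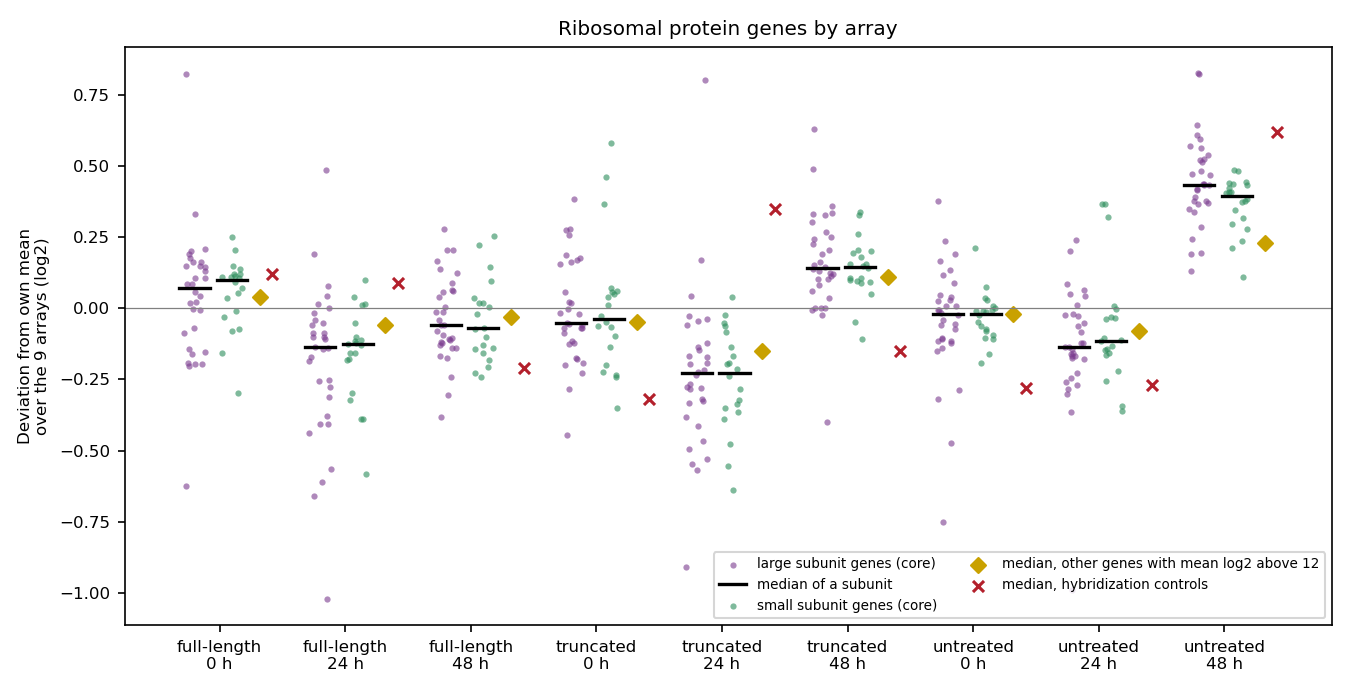
Deviation (log2) of each core gene from its own mean over the 9 arrays, for the large (purple) and small (green) subunit with a bar at each median, beside the median of 213 other genes with mean log2 signal above 12 (diamond) and of the hybridization controls (cross). Both subunits sit at nearly the same height on each array, lowest on the truncated 24 h array (−0.23) and highest on the untreated 48 h array (0.43 and 0.39). The diamond (0.23) and the cross (0.62) are also at their highest on the untreated 48 h array. On the truncated 24 h array the cross lies above 0, at 0.35.

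**Figure D3:**
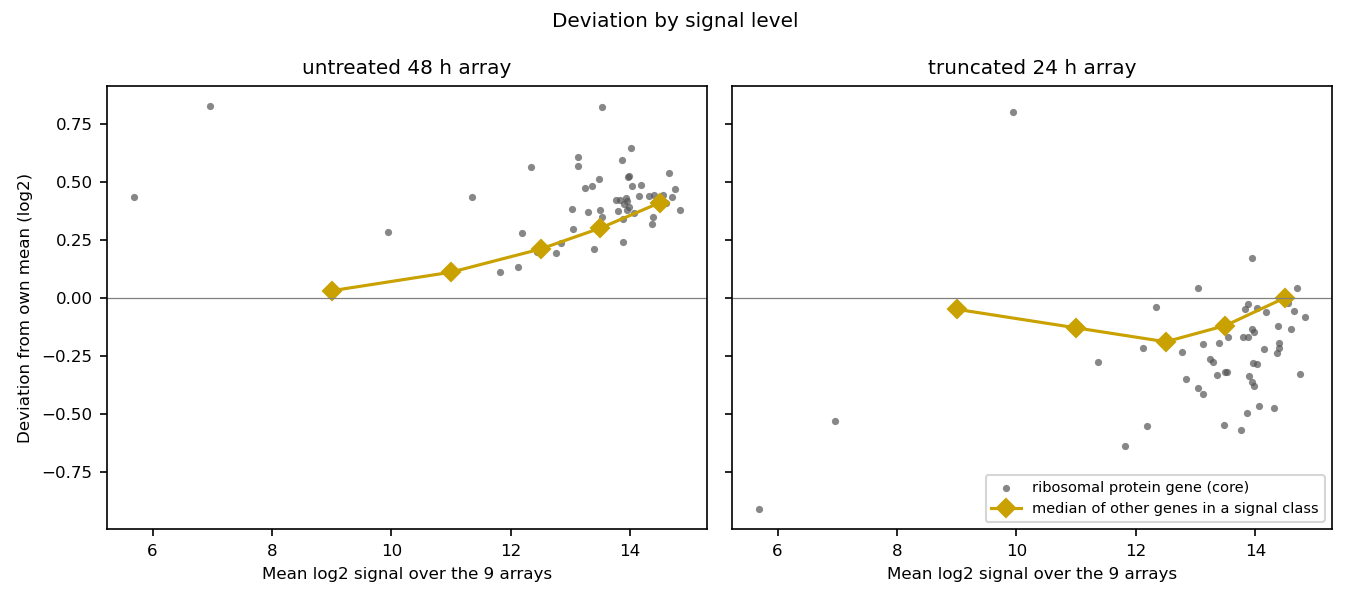
Deviation (log2) on the untreated 48 h and the truncated 24 h array against mean log2 signal, with core genes as grey points and the median of other genes in each signal class as a line. On the untreated 48 h array the line climbs with signal to 0.41, and the core medians are 0.22, 0.42 and 0.44 for mean log2 signals of 12 to 13, 13 to 14 and above 14. On the truncated 24 h array these are −0.23, −0.28 and −0.16.

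Large and small subunit genes had medians that differed by only −0.03 to 0.04 log2 on each array. The change from 0 h in the large subunit minus that in the small subunit was −0.03 ± 0.04 (SD, n = 3 series) at 24 h and 0.02 ± 0.05 (SD, n = 3) at 48 h, in each case less than the spread between series. Of the 2 subunits, the large had the wider range of single-gene values at 48 h over 24 h. It ran from −0.42 (RPL27A) to 0.84 (RPL36A), against 0.19 to 0.50 in the small. Both ends are among the dimmest core genes, with mean signals of 1017 (RPL27A) and 54.93 (RPL36A), where the lowest in the small subunit was 3674.

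Change over time was tested across the 3 series, which stand as 3 readings of each time. At 24 h the core median was −0.18 log2 from 0 h, against −0.03 for all genes, and 45 of 52 core genes were lower, yet 0 of 52 passed the test (limma, Benjamini-Hochberg adjusted p under 0.05), where 16.4% of all genes did (8.13% higher, 8.26% lower). An unadjusted p under 0.05 was reached by 6. At 48 h the core median was 0.17 from 0 h, against −0.01, with 47 of 52 higher, 0 called and 4 at an unadjusted p under 0.05, where 8.44% of all genes were called (4.52% higher, 3.92% lower). The 3 contrasts share arrays, so 48 h over 24 h is no independent reading. There the core median was 0.34, against 0.01, and 51 of 52 core genes were higher. In that contrast 2 core genes were called, both higher, beside 3.53% of all genes called (1.73% higher, 1.81% lower), and 22 were at an unadjusted p under 0.05. Precision is limited by having 3 arrays per time.

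The differences at 48 h were smaller without the untreated 48 h array. Without it, as an alternative chosen after seeing the data, the core median of 48 h over 24 h was 0.22, that of 48 h over 0 h was 0.06, and 0 core genes were called. Centring each array on the other bright genes, also chosen after seeing the data, gave 0.18 and 0.11, and −0.08 at 24 h over 0 h. Quantile normalization, which forces the same distribution on each array, gave core medians of −0.07, 0.02 and 0.07 at 24 h over 0 h, 48 h over 0 h and 48 h over 24 h, with 0 core genes called at 48 h over 24 h. Series by series, from its own 0 h array, the full-length series had core medians of −0.19 at 24 h, where 48 of 52 core genes were lower, and of −0.11 at 48 h, where 33 were lower. The truncated series had −0.26, with 39 lower, and 0.17, with 43 higher. The untreated series had −0.09, with 36 lower, and 0.45, with 52 of 52 higher (0.02 with quantile normalization). Of all genes, the share above the 0 h array was, by time, 48.0% and 46.3% in the full-length, 50.6% and 50.1% in the truncated and 46.4% and 50.9% in the untreated series. From 24 to 48 h the core medians were 0.13, 0.39 and 0.54 in the same order of series, with 34, 51 and 50 of 52 higher, beside 46.6%, 49.3% and 53.8% of all genes. All 3 series thus had their core median higher at 48 h than at 24 h, by least in the full-length series.

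The 48 h array was above the 24 h array in all 3 series for 32 of 52 core genes (20.1% of all genes), and every 48 h array was above every 24 h array for 22 of 52 (10.4% of all genes). Differences of 2-fold or more from 0 h were few. At 24 h they were found in 1 core gene of the full-length series (19.8% of all genes), 4 of the truncated series (27.3%) and 0 of the untreated series (18.9%). At 48 h they were found in 0 (18.7%), 0 (19.3%) and 1 (17.8%), the last being RPL35. From 24 to 48 h they were found in 0 (15.9%), 3 (19.6%) and 1 (15.8%). The 0 h arrays themselves differed by 2-fold or more in 1 core gene for full-length over untreated (14.9% of all genes), 0 for truncated over untreated (13.2%) and 1 for full-length over truncated (15%), which was RPL34 in both cases.

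RPL3, which lies near the catalytic centre of the large subunit, rose between 24 and 48 h. It read 8535, 5862 and 10059 at 0, 24 and 48 h in the full-length series, 8611, 7814 and 11254 in the truncated and 9726, 7562 and 13291 in the untreated series. Its 24 h array was the lowest and its 48 h array the highest of each series, and no 24 h signal reached any 48 h signal. The change was 0.71 ± 0.15 log2 (SE), 1.632-fold, with an adjusted p of 0.013 (limma) and the same direction in 3 of 3 series. Its probe set is marked for possible cross-hybridization. The call ended without the untreated 48 h array (0.66, adjusted p = 0.089) and without the full-length, the truncated or the untreated series (0.67, 0.80 and 0.65, adjusted p = 0.094, 0.06 and 0.15). With quantile normalization the change was 0.45 (adjusted p = 0.068).

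RPL34, also of the large subunit, rose by 0.61 ± 0.15 log2 (SE) between 24 and 48 h, 1.531-fold (limma adjusted p = 0.035, 3 of 3 series). It read 7696, 5850 and 9615 in the full-length series, 15478, 10555 and 14985 in the truncated and 15426, 13649 and 20980 in the untreated series. The full-length signals lay below those of both other series at each time, at 0 h included, with a mean gap of 0.98 log2 or 1.966-fold. The call ended without the untreated 48 h array (0.56, adjusted p = 0.17), without the truncated 24 h array (0.60, adjusted p = 0.14) and without the full-length, the truncated or the untreated series (0.56, 0.67 and 0.61, adjusted p = 0.17, 0.15 and 0.19). With quantile normalization the change was 0.29 (adjusted p = 0.3).

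**Figure D4:**
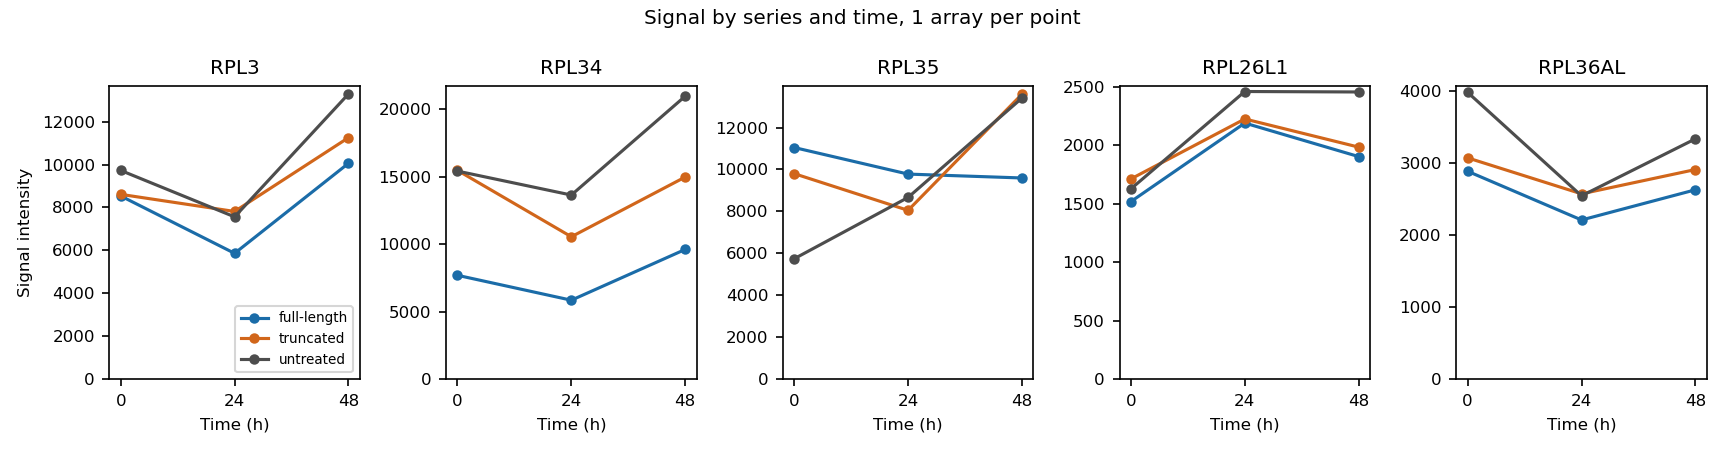
Signal intensity at 0, 24 and 48 h in the 3 series for RPL3, RPL34, RPL35, RPL26L1 and RPL36AL, 1 array per point, each axis from 0. RPL3 dips at 24 h in each series, RPL34 is lowest throughout in the full-length series, RPL35 starts at 5740 in untreated cells, RPL26L1 is higher at 24 h than at 0 h in each series and RPL36AL is lower.

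The remaining large subunit genes with the greatest differences did not pass the test. RPL36A differed by −0.87 ± 0.45 log2 (SE) at 24 h from 0 h and by 0.84 ± 0.45 at 48 h from 24 h, on its dim probe set. RPL23A, which borders the exit of the protein tunnel, read 17127, 11234 and 13962 in the full-length series, 14036, 10571 and 15763 in the truncated and 17548, 14663 and 22492 in the untreated series. Its 24 h array was the lowest of each series, and the difference at 24 h was −0.43 ± 0.16 (limma adjusted p = 0.089). RPL27A went the other way from the family, by 0.61 ± 0.22 at 24 h (adjusted p = 0.069), with 719.6 and 1705 at 0 and 24 h in the truncated series, 705.9 and 1009 in untreated cells, and 1053 and 1116 with full-length NRSF. Without the truncated 24 h array this was 0.26 (adjusted p = 0.48), and it passed the test without the untreated 48 h array (0.61, adjusted p = 0.042) and with bright-gene centring (0.71, adjusted p = 0.029). RPLP2 differed by 0.65 ± 0.34 at 48 h from 24 h, while its other probe set gave −0.26.

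At 48 h from 0 h the largest core difference was that of RPL35, another protein at the tunnel exit, at 0.50 ± 0.21 log2 (SE; limma adjusted p = 0.16). It read 11046, 9779 and 9594 in the full-length series, 9800, 8049 and 13589 in the truncated and 5740, 8665 and 13405 in the untreated series. The untreated 0 h array was thus the lowest of the 9, and the full-length series was lower at 48 h than at 0 h. RPL27 differed by 0.39 ± 0.17 (adjusted p = 0.17) and was highest at 25971 on the untreated 48 h array. The lowest core differences at 48 h were −0.11 for RPL35A and −0.09 for RPL29, which turned to 0.36 and 0.09 on the dimmest probe set of each that passed the filter. RPL24, which bridges both subunits, had the highest core value at 24 h after RPL27A, at 0.08 ± 0.17, and this turned to −0.19 on its probe set without the cross-hybridization mark.

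Among small subunit genes RPS25, which sits near the exit site and serves some internal ribosome entry sites, had the lowest value at 24 h, −0.41 ± 0.21 log2 (SE; limma adjusted p = 0.22). It read 4644, 3126 and 3995 in the full-length series, 7004, 3187 and 5606 in the truncated and 4340, 6031 and 5674 in the untreated series. Both construct series were lower at 24 h and untreated cells were higher. RPS15A read 11130, 8982 and 11181, then 16201, 9403 and 10913, then 10517, 14675 and 14951 in the same order, with the same split at 24 h. RPS9, near the entry of the mRNA channel, differed by 0 at 48 h from 0 h, with 2315 on the truncated 24 h array and 4653 on the untreated 24 h array at its extremes.

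RPS18, often used as a reference gene, read from 18735 to 28560 over the 9 arrays, with a median of 21187 and a standard deviation of 0.19 log2. Its difference was −0.10 ± 0.17 at 24 h and 0.22 ± 0.17 at 48 h from 0 h, and 0.32 ± 0.17 at 48 h from 24 h. RPL11, which can bind MDM2, read 15480, 13350 and 13867 in the full-length series, 13805, 9330 and 15212 in the truncated and 14076, 12715 and 18516 in the untreated series. All its 24 h arrays were below its other arrays, and its difference at 48 h from 24 h was 0.43 ± 0.17 (limma adjusted p = 0.18).

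**Figure D5:**
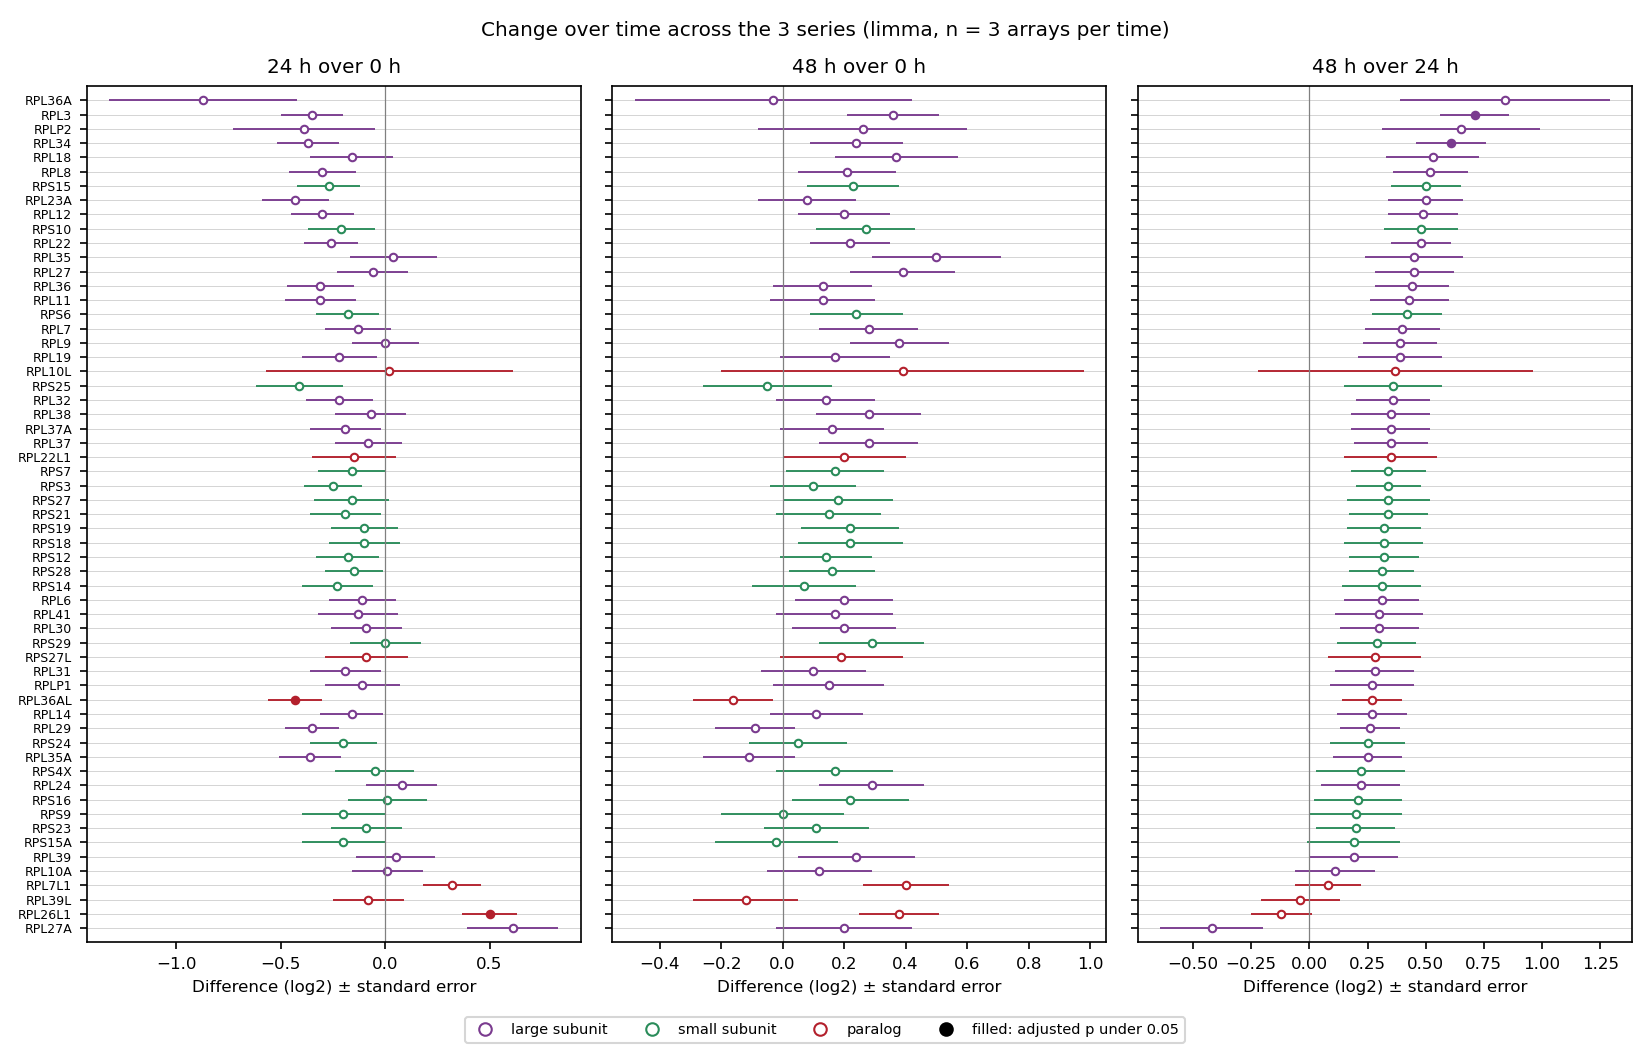
Difference (log2) ± standard error of each core gene and paralog at 24 h over 0 h, 48 h over 0 h and 48 h over 24 h, from limma over 3 arrays per time, ordered by the last contrast. Core genes lie mostly left of 0 in the first panel and right of 0 in the last, and the filled points are RPL3 and RPL34 at 48 h over 24 h, and RPL26L1 and RPL36AL at 24 h over 0 h.

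The 7 paralogs went in both directions at 24 h. Their median was −0.08 at 24 h and 0.20 at 48 h from 0 h, and at 24 h 2 of 7 were called, 1 higher and 1 lower, beside 8.13% and 8.26% of all genes. RPL26L1, a near copy of RPL26, rose by 0.50 ± 0.13 log2 (SE; limma adjusted p = 0.016). It read 1519, 2191 and 1904 in the full-length series, 1713, 2226 and 1985 in the truncated and 1628, 2461 and 2457 in the untreated series, so that every 24 h signal was above every 0 h signal. RPL36AL, an expressed copy of RPL36A, fell by 0.43 ± 0.13 (adjusted p = 0.036). It read 2884, 2208 and 2627 in the full-length series, 3070, 2571 and 2908 in the truncated and 3979, 2543 and 3334 in the untreated series, so that every 24 h signal was below every 0 h signal. RPL26L1 was also called in 13 of 16 alternatives, and its call ended without the full-length or the untreated series (0.49 and 0.45, adjusted p = 0.11 and 0.13). RPL36AL was also called in 5 of 16, and its call ended without the truncated 24 h or the untreated 48 h array (adjusted p = 0.052 and 0.055) and without the full-length, the truncated or the untreated series (adjusted p = 0.13, 0.062 and 0.30).

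Beside their parents, the paralogs ran as follows. RPL7L1, which is tied to assembly of the large subunit, differed by 0.32 ± 0.14 log2 (SE) at 24 h and 0.40 ± 0.14 at 48 h from 0 h (limma adjusted p = 0.13 and 0.083), where RPL7 gave −0.13 and 0.28. Its signals were 5140, 6321 and 5889 in the full-length series, 3291, 4262 and 4874 in the truncated and 3449, 4195 and 4629 in the untreated series, highest at each time with full-length NRSF. RPL22L1, which can stand in for RPL22, gave −0.15 and 0.20, close to RPL22 at −0.26 and 0.22. RPS27L, a known p53 target, gave −0.09 and 0.19, close to RPS27 at −0.16 and 0.18. RPL39L, known from testis, gave −0.08 and −0.12 against 0.05 and 0.24 for RPL39, on signals of 390.5 to 537. RPL10L, an intronless testis gene, was dim, from 20.51 to 105, and its differences had a standard error of 0.59. The differences between a paralog and its parent were not tested.

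In a few members, named after their values were seen, all 3 signals of 1 series, 0 h included, lay outside the whole range of the other signals. A series that was lowest or highest at each time but overlapped that range, as the full-length series did for RPL12, was not counted. Every full-length signal was below every signal of both other series for RPL34, RPL14 (by a mean of 0.48 log2), RPS28 (0.46) and RPS19 (0.31). For RPL7L1 every full-length signal was above them (0.50). Over all genes, 5.04% had 1 series apart in this way. RPL14 read 4507, 3976 and 3966 in the full-length series, 5375, 5032 and 5952 in the truncated and 5894, 5096 and 7642 in the untreated series.

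To compare the constructs, the change of each construct series from its 0 h array was set against that of the untreated series, with 24 and 48 h taken as repeated readings. The core median was −0.32 log2 for full-length over untreated and −0.20 for truncated over untreated, which share the untreated arrays, and −0.12 for full-length over truncated. No core gene and no paralog was called in any of the 3 (limma, 0 of 59 in each), where 0.00725%, 0.0363% and 0.0145% of all genes were. At an unadjusted p under 0.05 there were 2, 5 and 0 core genes. Taken by time, the medians were −0.13 and −0.57 at 24 and 48 h for full-length over untreated, −0.09 and −0.29 for truncated over untreated, and 0.02 and −0.29 for full-length over truncated. Without the untreated 48 h array the medians over both times were −0.18 and −0.06 for full-length and truncated over untreated, and with bright-gene centring they were −0.13 and −0.03. With quantile normalization they were −0.02 and −0.09, and full-length over truncated turned to 0.07.

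In 9 of 52 core genes (17.31%) the full-length series was below and the truncated series above its own 0 h array at both times, against 8.21% of all genes. The reverse was seen in 0 of 52 and in 6.0% of all genes. The 0 h arrays themselves differed, with a core median of 0.13 log2 for full-length over truncated.

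Single genes in these comparisons had wide errors. RPS15A differed by −1.17 ± 0.34 log2 (SE) for truncated over untreated (limma adjusted p = 0.28) and RPS25 by −1.16 ± 0.35 (adjusted p = 0.32). For both genes the truncated 0 h array, from which the truncated changes are taken, was the highest of the 9 (16201 and 7004). RPL35 differed by −1.10 ± 0.37 for full-length over untreated (adjusted p = 1), on the low untreated 0 h array given above, and RPL36A by −1.38 ± 0.97. RPL36AL had 0.19 ± 0.29 and 0.28 ± 0.29 over untreated with full-length and truncated NRSF. RPS9 differed by 0.65 ± 0.36 for full-length over truncated (adjusted p = 0.85) and RPL27A by −0.71 ± 0.43 (adjusted p = 0.87). RPL10L had the highest values, up to 2.20 ± 1.18, on its dim probe set.

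Genes that build ribosomes were called at 24 h where the core genes were not, though the difference between the lists was not tested. Of 42 fixed genes of nucleolar processing and subunit assembly 36 passed the filter, and 11 rose and 3 fell at 24 h from 0 h, with a median of 0.25 log2, beside 8.13% of all genes higher and 8.26% lower. RIOK2, a kinase of late small subunit maturation, rose by 1.12 ± 0.19 (SE; limma adjusted p = 0.00074), from 192.5 to 394.8 in the full-length, 256.8 to 626 in the truncated and 302.3 to 616.8 in the untreated series. RIOK2 gave 0.24 with the mean of its probe sets and −0.63 on the dimmest kept. RRP12, a subunit export factor, rose by 0.98 ± 0.19 (adjusted p = 0.0026), but the mean of its probe sets gave 0.31 (adjusted p = 0.56), and without the full-length series the value was 0.84 (adjusted p = 0.076). At 48 h 4 rose and 0 fell, near the share of all genes called in either direction (8.44%), of which 4.52% higher and 3.92% lower. Of the 4, NOP2, a methyltransferase of ribosomal RNA, rose by 0.70 ± 0.16, and NOB1, the nuclease that finishes 18S rRNA, by 0.65 ± 0.16. Both calls ended without the untreated 48 h array (0.67 and 0.59, adjusted p = 0.085 and 0.11), and without the full-length (adjusted p = 0.062 and 0.21) or the untreated series (0.11 and 0.17), that of NOP2 also without the truncated series (0.056).

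Of 15 genes of RNA polymerase I, which transcribes ribosomal RNA, 2 rose and 0 fell at 24 h. This is near the share of all genes called in either direction (16.4%), of which 8.13% higher and 8.26% lower. RRN3, the factor that recruits the polymerase in growing cells, rose by 0.96 ± 0.16 log2 (SE; limma adjusted p = 0.00055) at 24 h and 0.72 ± 0.16 (adjusted p = 0.0093) at 48 h, and was called at 24 h in 16 of 16 alternatives. The 48 h call ended without the untreated 48 h array (0.67, adjusted p = 0.07) and without the full-length, the truncated or the untreated series (adjusted p = 0.082, 0.053 and 0.057). Over 0, 24 and 48 h it read 381.6, 841.3 and 592.4 in the full-length, 415.9, 834.2 and 731.1 in the truncated and 379.1, 634.3 and 615.1 in the untreated series. POLR1D, a subunit shared with polymerase III, rose by 0.51 ± 0.14, but the mean of its probe sets gave −0.56 and the dimmest −1.43, and the call ended without the full-length, the truncated or the untreated series (adjusted p = 0.094, 0.051 and 0.12).

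Among 24 of 26 regulators of ribosomal protein mRNAs that passed the filter, 5 rose and 2 fell at 24 h (16.4% of all genes called, 8.13% higher and 8.26% lower). At 48 h 2 rose and 0 fell, near the share of all genes called in either direction (8.44%), of which 4.52% higher and 3.92% lower. MXD1, which competes with MYC for its partner MAX, rose by 2.92 ± 0.21 log2 (SE; limma adjusted p = 1.3e-07) at 24 h and 2.20 ± 0.21 at 48 h. It read 108.3, 630 and 371.7 in the full-length, 81.92, 622.3 and 440 in the truncated and 58.16, 572.4 and 304.5 in the untreated series. On its dimmest probe set kept it gave 1.14 and 1.21 (adjusted p = 0.55 and 0.60). SESN2, a stress-induced inhibitor of mTOR complex 1, rose by 1.69 ± 0.28 at 24 h (adjusted p = 0.00065). DDIT4, another inhibitor of that complex, rose by 0.88 ± 0.16 at 24 h and fell by 1.12 between 24 and 48 h. MYC rose by 0.65 ± 0.18 at 24 h (adjusted p = 0.02), a call that ended without the full-length or the untreated series (0.48 and 0.63, adjusted p = 0.23 and 0.11). DDIT4 and MYC were named after their values were seen. MAX rose by 0.53 ± 0.15 at 48 h (adjusted p = 0.039), a call made in only 6 of 16 alternatives and not without the untreated 48 h array (0.58, adjusted p = 0.10) or without the full-length, the truncated or the untreated series (0.55, 0.36 and 0.68, adjusted p = 0.18, 0.26 and 0.054).

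Of 75 mitochondrial ribosomal protein genes 6 rose and 4 fell at 24 h, a share near that of all genes (16.4% called), and 15 rose and 0 fell at 48 h (4.52% of all genes higher, 3.92% lower). The medians were 0.06 and 0.21 log2. MRPS30 rose by 1.01 ± 0.16 (SE; limma adjusted p = 0.00059) and MRPS34 fell by 0.87 ± 0.20 at 24 h. MRPL47 rose by 1.05 ± 0.14 and MRPL39 by 0.90 ± 0.15 at 48 h. On the mean of their probe sets MRPS30 gave 0.20, MRPL47 0.61 and MRPL39 0.74 (adjusted p = 0.47, 0.14 and 0.19), and on the dimmest kept MRPS30 gave −0.04 and MRPL47 0.17. Without the truncated series MRPS34 gave −0.59 (adjusted p = 0.079). The median of mean signal was 791.7 in this list, against 14890 among the core genes, of which 0 of 52 were called at 48 h, and the difference between the lists was not tested. Of 24 translation factors and other TOP mRNAs 17 passed the filter, and 0 were called in any time contrast (limma, 4, 1 and 4 at an unadjusted p under 0.05), with medians of −0.14, 0.08 and 0.23 at 24 h over 0 h, 48 h over 0 h and 48 h over 24 h. Core genes whose start holds the pyrimidine run gave −0.19, 0.16 and 0.33 in these contrasts (34 genes), and those whose start does not gave −0.13, 0.19 and 0.35 (12 genes).

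The pattern of 4 genes outside the family was most like the core median over the 9 arrays, which is given as a description over arrays of a shared scaling. They were ENO1, a glycolytic enzyme (Pearson r 0.941), HINT1, a nucleotide hydrolase (0.927), FTH1P5, annotated as a ferritin pseudogene (0.924), and HSP90AA1, a cytosolic chaperone (0.924). ENO1 read 4781, 4406 and 4947 in the full-length series, 4733, 3831 and 5637 in the truncated and 4805, 4858 and 7115 in the untreated series. All 4 were bright and had their highest signal on the untreated 48 h array, as 40 of 52 core genes did.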

How the data were processed

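The deposited values are the authors' signal intensities on a linear scale, for which the submitters' processing notes name GCOS, Affymetrix's array software, with no settings. RNA was extracted with Trizol and labelled as biotinylated cRNA, per the labels' protocols. There were 54675 probe sets. The 62 controls, 1801 that name several genes and 11777 not in the annotation were left out, and 41091 naming 1 gene were used, 41043 of them joined to RefSeq by Entrez ID. Signals were floored at the 25th percentile (8.266), put on the log2 scale, and reduced to the probe set of highest mean signal per gene. Genes with mean log2 above 4.2, the 40th percentile, were kept (13792).

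Tests used limma 3.58.1 in R 4.3.3 (lmFit and trended eBayes, two-sided), with p-values adjusted by Benjamini-Hochberg over all 13792 genes. The time model held series and time (4 residual and 16.5 total degrees of freedom). The exposure model added a term per construct at 24 and 48 h (2 and 16.2). Nothing in the labels says that arrays are separate cultures within a group, so p-values reflect only how far these arrays spread. Scripts were tested on simulated data with the means and spread of the genes kept. A change of 1 log2 was recovered in 55 of 100 genes at 24 h over 0 h. For full-length over untreated it was recovered in 6 of 100, and a change of 2 log2 in 47 of 100, so most construct changes of 1 log2 were missed there. Members, lists, tests and alternatives were chosen with earlier results of these data known. Named members are the 4 brightest and dimmest core genes, the extremes of each contrast, all called members, paralogs with parents, and reference and MDM2-binding genes. From each list the 2 largest calls at 24 and 48 h are named, and the 4 genes most alike.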

Additional observations from a re-analysis of the deposited data

Results flagged for a closer look

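In 5 named core genes the 2 construct series went opposite ways from their own 0 h arrays at both times, lower with full-length and higher with truncated NRSF. The full-length minus truncated difference of these changes, in log2, was −0.50 for RPL24 (limma adjusted p = 0.90), −0.55 for RPL39 (0.91), −0.51 for RPL41 (0.92), −0.59 for RPS16 (0.90) and −0.30 for RPS18 (0.95), so none passed the test of the difference. RPS16, for example, differed from 0 h by −0.11 and −0.31 at 24 and 48 h in the full-length series and by 0.27 and 0.51 in the truncated series. In all 5 genes the full-length 0 h array already read above the truncated 0 h array, for RPS16 33558 against 22807. At 24 h RPS16 was still higher with full-length NRSF (31131 against 27445), and at 48 h it was lower (27121 against 32383). How much of the split comes from the 0 h arrays was not tested. The same split was seen in 9 of 52 core genes (17.31%), against 8.21% of all genes, and the opposite split in 0 of 52 and in 6.0% of all genes.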

How the results depend on the processing

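The time and exposure models compare times within series, with series as a term; the labels give no replicate numbers to pair arrays by otherwise. Dimmest here means the dimmest probe set that passed the filter. Of the values over the core genes, 213 stayed within the limits set for agreement and 35 moved. For medians these limits were the spread between series or times, up to an SD of 0.31 log2 over 2 times. A median that stayed may therefore have nearly vanished or turned. With quantile normalization full-length over untreated went from −0.32 to −0.02 and full-length over truncated from −0.12 to 0.07, and both counted as staying. With quantile normalization the core median was −0.07 at 24 h over 0 h and 0.07 at 48 h over 24 h, and within series −0.06 with full-length NRSF at 24 h and 0.02 in untreated cells at 48 h. Centring on bright other genes gave −0.08 at 24 h over 0 h, −0.09 with truncated NRSF at 24 h and −0.03 for truncated over untreated. Without the untreated 48 h array the last was −0.06. With the mean of all probe sets or the dimmest one, truncated NRSF at 24 h gave −0.12, and large minus small subunit gave −0.08 and −0.32 at 24 h and 0.07 and −0.06 at 48 h. The cause was not tested in any of these.

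Core genes called at 24 h over 0 h were 1 without cross-hybridizing probe sets, with the dimmest probe sets, without the untreated series, without the untreated 48 h array and with bright-gene centring. At 48 h over 0 h they were 2 without cross-hybridizing probe sets and 1 with the dimmest. At 48 h over 24 h they were 5 with the filter at the 60th percentile. They were 1 with the mean of all probe sets, without cross-hybridizing probe sets, with the dimmest probe sets, with no series term, without the truncated 24 h array and with bright-gene centring. They were 0 with quantile normalization, no filter, no variance trend, without the full-length, the truncated or the untreated series, and without the untreated 48 h array. RPL3 was called in 8 of 15 alternatives and RPL34 in 4 of 16.

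Directions turned for single genes, of which POLR1D, RIOK2 and MRPS30 had been called. RPL24 at 24 h gave −0.06 with the mean of all probe sets, −0.19 without cross-hybridizing probe sets and with the dimmest, −0.03 without the truncated series and −0.01 without the truncated 24 h array. At 48 h over 0 h RPL39L gave 0.01 without the truncated series, RPL35A 0.03 with the mean of all and 0.36 with the dimmest probe set, and RPL29 0.09 with the dimmest. At 48 h over 24 h RPL7L1 gave −0.08 with quantile normalization and −0.09 with bright-gene centring, and RPLP2 −0.26 with the dimmest. At 24 h RIOK2 gave −0.63, POLR1D −1.43 and MRPS30 −0.04 with the dimmest, and POLR1D −0.56 with the mean of all. The other probe sets behind these turns range from dim ones to bright ones, such as that of RPL24 at a mean signal of 10923. Having 1 array per group limits all of these readings.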
